A study of Homo sapiens with 8 samples.

Results

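HCT-116 cells, a line from colorectal carcinoma, held 1757 HIF-1β-binding sites, out of 5833 counted over 4 cancer cell lines. A site was a merged region with overlapping peaks (at least 1 bp) of both HCT-116 replicates, which the labels number 2 and 3. The study immunoprecipitated HIF-1β with its bound DNA and sequenced it (ChIP-seq) in HCT-116 cells, PC-3 cells (prostate cancer), T47D cells (breast cancer) and A549 cells (lung cancer), with 2 replicates of each. All 8 libraries came from cells kept at 0.5% oxygen for 16 h, and no normoxic cells or input libraries were analysed here, so binding that needs hypoxia and binding that does not cannot be told apart. Sites built in the same way numbered 970 in PC-3, 2065 in T47D and 1041 in A549 cells. Each line stands for 1 tumour, and the labels do not say whether replicates were separate cultures, so the spread between replicates may be technical. The tests take libraries, not lines, as units, although the 2 libraries of a line resemble each other. Their p-values therefore do not measure the spread between lines. Peak positions do not measure expression, so the identity of the line could not be checked from marker transcripts.

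HIF-1β (ARNT) is the stable partner of the oxygen-regulated subunits HIF-1α and HIF-2α. In low oxygen the α subunits escape prolyl hydroxylation and destruction by the VHL ubiquitin ligase, pair with HIF-1β, and bind hypoxia response elements near genes of glycolysis, angiogenesis and oxygen sensing. HIF-1β also pairs with the aryl hydrocarbon receptor (AHR) and other proteins of the same family, so its peaks need not all be sites of HIF-α.

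The core of the hypoxia response element is ACGTG or GCGTG, and it was searched on both strands. The reference sequences (GRCh37, plus strand, 5′ to 3′) of 7 of the highest-ranked HCT-116 sites are shown first because these sites also had a peak in every other library. Capitals mark each copy of the core on either strand, so that CACGT and CACGC are copies on the minus strand. Each window is 81 bp, is centred on a core copy so as to hold the most copies, and lies outside annotated exons. A match describes the sequence and is no proof of binding at that copy. The offset of each window from the nearest coding start is negative where it is upstream.
ENO1, rank 1, offset 172 bp from the nearest coding start, chr1:8938493-8938573: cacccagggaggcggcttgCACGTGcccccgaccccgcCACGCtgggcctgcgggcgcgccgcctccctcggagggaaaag
GPI, rank 2, −139 bp, chr19:34850206-34850286: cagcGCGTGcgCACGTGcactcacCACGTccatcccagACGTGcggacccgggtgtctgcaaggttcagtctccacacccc
ANKRD37, rank 3, −160 bp, chr4:186317795-186317875: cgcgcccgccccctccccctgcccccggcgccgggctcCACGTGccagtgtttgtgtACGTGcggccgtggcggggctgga
EGLN3, rank 6, 12334 bp, intronic, chr14:34407658-34407738: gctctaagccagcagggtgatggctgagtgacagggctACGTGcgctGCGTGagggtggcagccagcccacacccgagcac
PDK1, rank 7, −185 bp, chr2:173420510-173420590: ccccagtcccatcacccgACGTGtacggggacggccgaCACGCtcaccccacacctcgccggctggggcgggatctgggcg
LDHA, rank 8, −68 bp, chr11:18415999-18416079: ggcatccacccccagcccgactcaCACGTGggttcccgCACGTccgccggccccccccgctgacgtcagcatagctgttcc
ZNF292, rank 10, −44 bp, chr6:87865199-87865279: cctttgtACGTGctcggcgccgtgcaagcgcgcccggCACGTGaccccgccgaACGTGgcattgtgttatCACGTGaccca
The SLC2A1, AHRR, SLC39A11 and ROR2 windows are shown because they come from HCT-116 sites that no peak of the other 6 libraries overlapped.
SLC2A1, rank 21, intergenic, −49366 bp, chr1:43473865-43473945: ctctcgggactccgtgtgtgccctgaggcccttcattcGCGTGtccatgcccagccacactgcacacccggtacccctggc
SLC39A11, rank 200, intronic, 189357 bp, chr17:70656448-70656528: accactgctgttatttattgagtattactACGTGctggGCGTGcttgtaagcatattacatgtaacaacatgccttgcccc
ROR2, rank 203, intronic, 152985 bp, chr9:94558137-94558217: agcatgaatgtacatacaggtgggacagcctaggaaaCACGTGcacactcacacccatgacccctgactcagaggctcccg
AHRR, rank 251, intronic, −20950 bp, chr5:400045-400125: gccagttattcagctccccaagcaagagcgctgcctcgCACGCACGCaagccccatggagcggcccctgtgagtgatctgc
The ENO1, GPI, ANKRD37, LDHA and ROR2 windows each held 1 copy of the E-box CACGTG, which contains the core on both strands, and the ZNF292 window held 2. The ROR2 window also held 1 copy of TGANTCA, the element of AP-1 (FOS and JUN) factors.

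The authors' peak caller gave each peak a score, and a score of 1 library cannot be set against that of another, so scores served only as ranks within a library. Across the 1757 HCT-116 sites the median score was 178.1 in replicate 2 and 99.2 in replicate 3. The number given by the caller was higher in replicate 2 at 1611 sites, with a median ratio of 1.69 over all 1757, which describes the lists and not the amount bound. The replicates put the sites in a similar order (Spearman's rho 0.812 across sites, a description over positions of the same pair of libraries). Of the sites, 188 lay in the top 10% of both lists. Replicate 2 had 3790 peaks, of which 46.5% met a peak of replicate 3, whereas 92.1% of the 1913 peaks of replicate 3 met a peak of replicate 2. The 2028 peaks of replicate 2 alone were weak, with a median score of 70.7 and a highest score of 415, and 66.4% of them were at promoters. The sequencing depth is unknown, because the lists hold no reads, so its part in this imbalance was not tested. Sites are ranked below by the mean of their percentiles in both HCT-116 lists, with rank 1 the highest and ranks 1 to 3 tied. Score pairs are given with replicate 2 first, and offsets run from the nearest coding start to the centre of a site, negative ones being upstream.

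**Figure D1:**
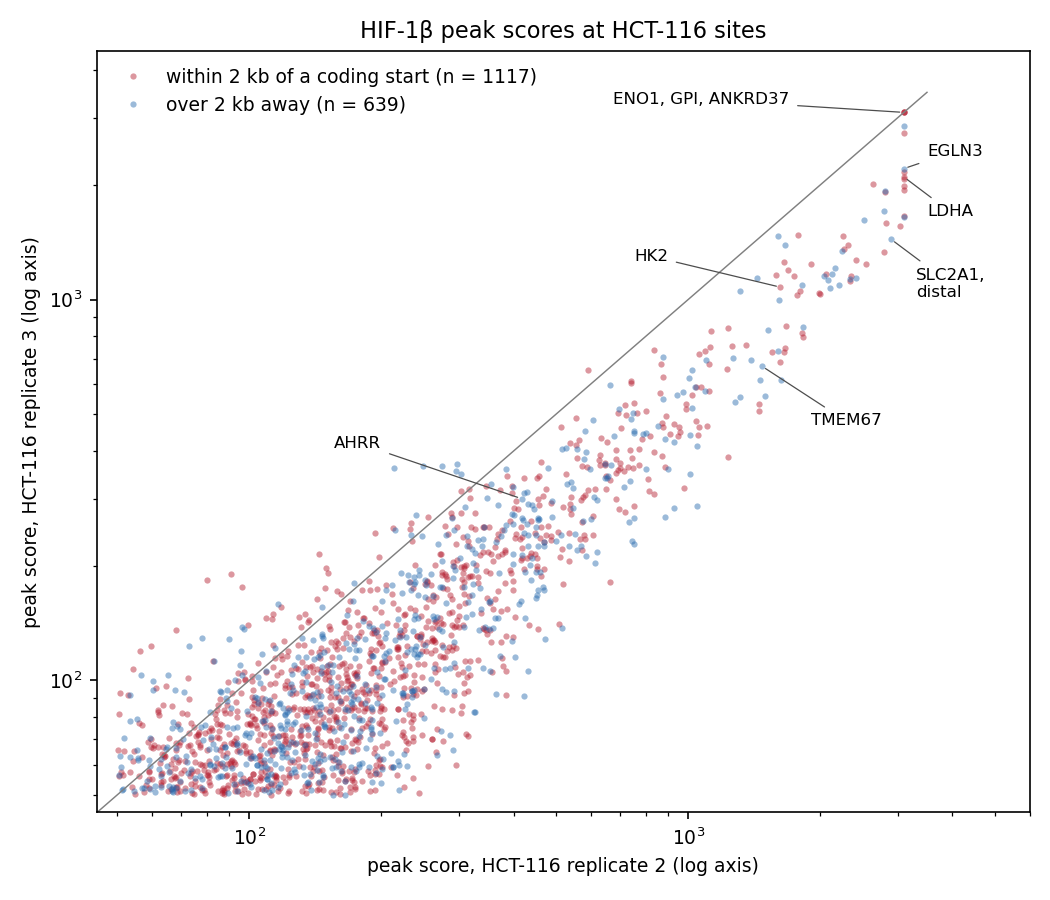
Peak score of every placed HCT-116 site in replicate 2 (horizontal, log axis) and replicate 3 (vertical, log axis), with sites within 2 kb of a coding transcription start in red (n = 1117) and other sites in blue (n = 639); the line marks equal scores. Most points lie under the line, 1611 of 1757 sites scoring higher in replicate 2, and both kinds of site span the whole range.

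Both replicates gave 3100, the upper limit of these HCT-116 lists, to sites at ENO1 (enolase), GPI (glucose-6-phosphate isomerase) and ANKRD37, an ankyrin repeat gene induced by hypoxia. The site of rank 4, at 3100 in replicate 2 and 2847 in replicate 3, lay between HIF1A and SNAPC1, at −11231 bp from SNAPC1 and 53567 bp downstream of the nearest HIF1A start. GAPDH (rank 5) scored 3100 and 2733. EGLN3, a prolyl hydroxylase that marks HIF-α for destruction, followed at rank 6 with 3100 and 2207, its site lying in an intron 12384 bp downstream of a start. PDK1, a mitochondrial kinase that inhibits pyruvate dehydrogenase, and LDHA, which makes lactate, held ranks 7 and 8 with 2158 and 2097 in replicate 3. NARF, ZNF292, AK4 (adenylate kinase 4) and PFKFB4 (a regulator of phosphofructokinase) completed the first 12, all at 3100 in replicate 2 and between 1656 and 2072 in replicate 3. The sites of rank 13 to 20 had NDRG1, C4orf3, SLC2A3 (the glucose transporter GLUT3), PNRC1, SLC8A3, FAM174B, KDM3A (a histone demethylase) and ZNF395 as their nearest coding genes. All 20 of these sites also had peaks in all 6 libraries of the other lines.

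HCT-116 sites lay mostly at gene starts. Of 1757 sites, 1117 (63.6%, 95% exact binomial interval 61.3 to 65.8%) had an edge no more than 2 kb from a start of a coding transcript, 220 (12.5%) lay in introns, 36 (2.05%) in exons and 383 (21.8%) between genes, and 1 lay off the main chromosomes. Intervals on shares cover counting error only. The centre of a site was within 500 bp of a start in 53.4% of placed sites, and the median distance was 395.5 bp. Promoter sites sat on both sides of the start, 565 of 1117 having their centre upstream, and 198 of them lay within 2 kb of the starts of at least 2 coding genes. For the 639 sites farther away, called distal here, the median distance was 30002 bp, and 117 of them (18.3%) had the start of a long noncoding RNA within 2 kb. The promoter share was 58.8% in the 20% of sites that ranked highest and 66.4% in the 20% that ranked lowest.

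The promoter preference was strong in both HCT-116 libraries. Among all peaks of a library, 65.1% in replicate 2 and 63.1% in replicate 3 were within 2 kb of a coding start. The T47D libraries followed at 60.8% and 59.1%, the PC-3 libraries at 41.8% and 38.0%, and the A549 libraries at 30.9% and 31.6%. Both HCT-116 libraries were thus above all others, but the gap to T47D was small beside the gap to PC-3 and A549. The difference between HCT-116 and the mean of the other 6 libraries was 20.4 percentage points (exact permutation test over 28 allocations, two-sided, p = 0.0714, adjusted p = 0.114 over 8 measures). The smallest p that this design allows is 0.0357. The share of peaks between genes was correspondingly low, 20.4% and 22.3% in HCT-116 against 24.5 to 40.4% elsewhere (exact permutation test, p = 0.0714, adjusted p = 0.114).

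**Figure D2:**
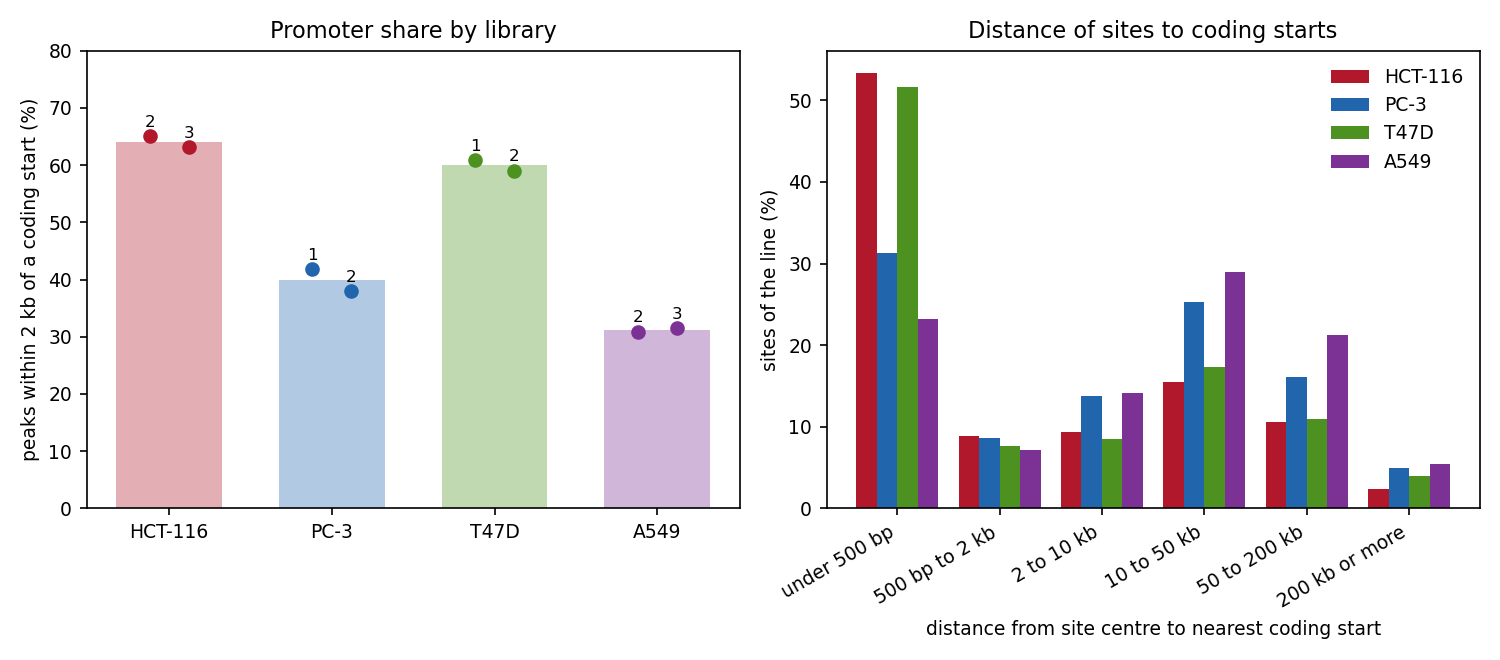
Left, percent of peaks within 2 kb of a coding transcription start in each library (points, with the replicate number above) and the mean of each line (bars, n = 2). Right, percent of the sites of each line by distance from site centre to the nearest coding start. The 2 HCT-116 libraries, at 65.1% and 63.1%, sit above the T47D, PC-3 and A549 libraries, and 53.4% of HCT-116 sites fall under 500 bp.

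The CpG ratio and 2 motifs of HCT-116 peaks lay above those of the other libraries. The median ratio of observed to expected CpG was 0.701 and 0.698 in the HCT-116 libraries, against 0.672 and 0.662 in T47D and 0.312 to 0.362 in the other 4 libraries (difference between means 0.257, exact permutation test, p = 0.0357, adjusted p = 0.0952). GGGCGG, the element of SP and KLF factors, was in the central 200 bp of 43.5% and 42.5% of HCT-116 peaks, against 22.6 to 39.0% elsewhere (exact permutation test, p = 0.0357, adjusted p = 0.0952). CACGTG was in 10.1% of the peaks of each HCT-116 library, against 5.55 to 8.36% (exact permutation test, p = 0.0357, adjusted p = 0.0952). In these 3 measures both HCT-116 libraries lay above all 6 others, yet none passed an adjusted p of 0.05, and 3 of the 8 measures were under 0.05 without adjustment. All 3 had the smallest p that the permutation test allows, which left little room to pass adjustment over 8 measures. Their failure to pass therefore says little. Within promoter sites alone the median CpG ratio was 0.764 in HCT-116 and 0.733 to 0.756 in the other lines. CACGTG was in 9.49% of HCT-116, 10.7% of PC-3, 8.37% of T47D and 7.76% of A549 promoter sites. Within distal sites the CpG ratio was 0.328 in HCT-116 and 0.251 to 0.277 elsewhere. CACGTG was in 8.14% of HCT-116, 6.28% of PC-3, 6.82% of T47D and 4.67% of A549 distal sites. The share with the HIF core, 68.9% and 72.8%, lay within the range of the other libraries, 60.1 to 75.4% (exact permutation test, p = 0.429, adjusted p = 0.5). Median peak width, 1263 and 1216 bp against 948.5 to 1314 bp elsewhere, overlapped too (exact permutation test, p = 0.464, adjusted p = 0.5).

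The HIF core gathered at the centre of HCT-116 sites whether or not they were at promoters. It was found in the central 200 bp of 73.2% of promoter sites (interval 70.5 to 75.8%) and 72.6% of distal sites (69.0 to 76.0%). In windows of 200 bp placed 5 kb away the shares were 23.2% and 26.0%, and 42.7% of all coding promoters, taken as 200 bp at the start, held it. Density reached 8.17 copies per kb next to the centre of promoter sites and 7.09 in distal sites, against 1.996 and 1.909 in the outermost 100 bp upstream, 1.5 kb from the centre. ACGTG alone was in the central window of 44.1% of promoter sites and 51.2% of distal sites, against 16.2% of all coding promoters. GCGTG was in 50.2% and 36.8%, against 32.5% of all coding promoters. A site held a median of 6 copies over its whole length and at most 34, while 17 sites held none, the best of them at rank 168. The central share of the core was 77.3% in the 20% of sites that ranked highest and 70.9% in the 20% that ranked lowest.

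Another motif was frequent at distal HCT-116 sites and rare at promoter sites. TGANTCA was in the central 200 bp of 28.01% of distal sites (interval from 24.6%) and 3.49% of promoter sites, against 6.11% of windows 5 kb from distal sites and 3.62% of all coding promoters. In distal sites of PC-3 and A549 cells the share was 27.8% and 29.6%, whereas in those of T47D cells it was 8.30%. Over all peaks it was 12.0% and 12.2% in the HCT-116 libraries, between the T47D libraries (4.25 and 4.75%) and those of PC-3 and A549 (18.4 to 23.1%), and HCT-116 did not stand apart (exact permutation test, p = 0.5, adjusted p = 0.5). Of the 179 distal sites with the motif, 6.70% were shared with T47D, 37.4% with PC-3 and 33.5% with A549. Of the 460 distal sites without it, 32.4% were shared with T47D, 35.4% with PC-3 and 33.7% with A549. The difference by motif was thus seen in the overlap with T47D, and it was not tested. The HIF core was present in the central window of 70.9% of the sites with TGANTCA and 73.3% of those without.

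Other elements were searched in the same windows. GGGCGG was in the centre of 57.2% of HCT-116 promoter sites, against 46 to 53.55% of those of the other lines and 47.9% of all coding promoters. It was in 21.3% of distal HCT-116 sites, against 6.50% of windows 5 kb away and 10.3 to 16.7% of the distal sites of other lines. The ETS element CGGAAG was in 18.7% of promoter sites and 18.7% of all coding promoters. The NF-Y element CCAAT was in 15.6% of HCT-116 promoter sites and 16.1 to 19.4% of those of the other lines, against 25.4% of all coding promoters. Site windows lie at the site centre and promoter windows at the start, so comparisons with all coding promoters do not match position. The AHR element TNGCGTG, which contains GCGTG, was in 7.69% of all HCT-116 sites and in 4.34% of all coding promoters. The elements of intestinal regulators were rare: CTTTGAT, of TCF factors, was in 3.76% of distal sites and in 2.58% of windows 5 kb away, and TTTATGG, of CDX factors, in 0.939% and 2.66%. AGATAA, of GATA factors, was in 7.82% of distal sites and TGTTTAC, of FOX factors, was in 2.66%, against 10.3% and 1.72% of windows 5 kb away.

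**Figure D3:**
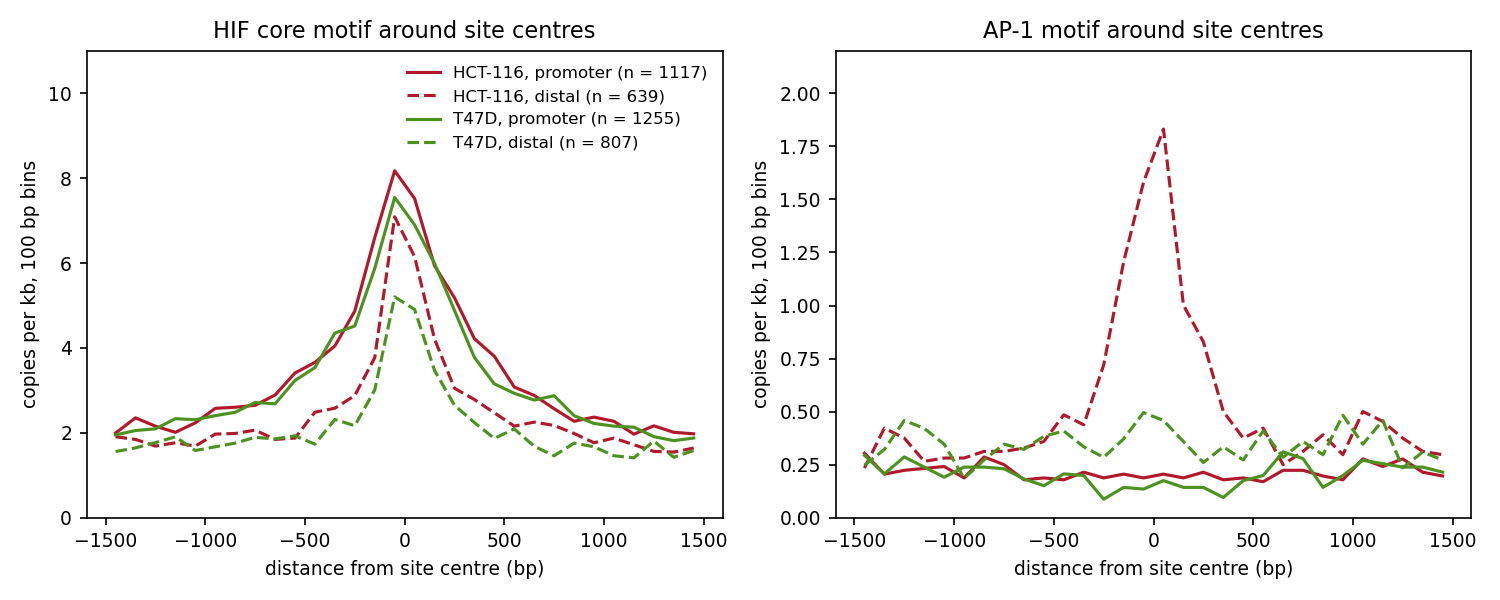
Copies per kb of the HIF core motif (left) and the AP-1 motif (right) in 100 bp bins by distance from the site centre (bp), for promoter (solid) and distal (dashed) sites of HCT-116 (red) and T47D (green) cells. The HIF core peaks at the centre in all 4 sets, at 8.17 copies per kb in HCT-116 promoter sites, while the AP-1 motif is densest at the centre of HCT-116 distal sites, at 1.83 copies per kb.

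Genes were read in 23 lists by function. Of 20136 coding genes, 1302 (6.47%) had an HCT-116 site within 2 kb of a start, and 2867 (14.2%) had one within 25 kb of the gene. For the 2 kb distance the corresponding shares were 2.34% in PC-3, 7.39% in T47D and 1.87% in A549 cells. Every count of list genes within 2 kb given below is to be read beside these shares, which differ between lines. The 19 lists that are not tissue markers held 414 genes, of which 79 (19.1%) had an HCT-116 site within 2 kb. Of these 79 genes, 40 had a site within 2 kb in all 3 other lines, and 15 had one in none of them. The same counts were not made for all 1302 genes, so whether list genes were shared more often is not known.

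Glycolysis was the most fully covered list. Of its 22 genes, 14 had an HCT-116 site within 2 kb, against 6.47% of all coding genes, and 12 of these had one in every other line too. The list was covered as fully elsewhere, with 14 genes in PC-3, 15 in T47D and 14 in A549 cells. All coding genes were there at 2.34%, 7.39% and 1.87%. The 14 genes bound in HCT-116 cells covered each step from glucose-6-phosphate to lactate, and their sites had a median rank of 40.5 among 1757. GPI and ENO1 had ranks 2 and 1, GAPDH rank 5, LDHA rank 8 and PFKFB4 rank 12. PGAM1 (phosphoglycerate mutase) followed at rank 23 with scores of 2248 and 1468, ALDOA (aldolase A) at rank 31 with 2352 and 1154, PGK1 (phosphoglycerate kinase) at rank 50 with 2001 and 1036, and PKM (pyruvate kinase) at rank 57 with 1827 and 797. TPI1, ALDOC, PFKL and ENO2 lay at ranks 102, 103, 133 and 191, and PFKP was the lowest at rank 379. PFKFB3, another regulator of phosphofructokinase, had a site within 2 kb in PC-3, T47D and A549 cells, but in HCT-116 cells it had a peak in replicate 2 alone, with a score of 67.4. PKLR and PFKFB2 had sites within 25 kb, at ranks 766 and 605, of which the first is the promoter site of CLK2 and the second lies nearest to C1orf116.

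Of 8 genes of glucose transport and phosphorylation, SLC2A1 (GLUT1), HK1 and HK2 (hexokinases) had HCT-116 sites within 2 kb. HK2 scored 1622 and 1077 (rank 53) and HK1 564 and 427 (rank 165). SLC2A1 had 4 sites within 100 kb, and the strongest of them was not at its promoter. The site at its start had rank 402 (399 and 183), a site at −3898 bp had rank 396 (468 and 176), and both were present in every other line. Another, centred 1723 bp downstream of a start, had rank 769. The strongest, from 43472619 to 43475269 on chromosome 1, lay between genes at −49405 bp from the SLC2A1 start, with 2900 in replicate 2 and 1439 in replicate 3 (rank 21). It was overlapped by no peak of the other 6 libraries, the highest-ranked HCT-116 site of which this was true, and it held 9 copies of the HIF core. SLC2A3 had its strongest site at −34740 bp (rank 15, 2812 and 1930), shared with all other lines.

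Mitochondrial and oxygen sensing genes were bound in part. Of 10 genes listed for mitochondrial restraint and mitophagy, 5 had a site within 2 kb in HCT-116 and 5 in each other line. Within the same distance lay 6.47% of all coding genes in HCT-116, 2.34% in PC-3, 7.39% in T47D and 1.87% in A549 cells. In HCT-116 cells the 5 were PDK1 (rank 7), BNIP3L (rank 48) and BNIP3 (rank 255), receptors of mitophagy, LONP1 (rank 62), a mitochondrial protease, and PDK3 (rank 476). Of 11 genes of oxygen sensing, EGLN1, HIF1AN and CITED2 had a site within 2 kb, with ranks 237, 937 and 313. EGLN1 and HIF1AN are the main prolyl hydroxylase and the asparaginyl hydroxylase of HIF-α, and CITED2 competes with HIF-α for its coactivators. HIF1AN, with scores of 224 and 78.9, had a site in no other line but met a peak in 2 other libraries. EGLN3 and HIF1A had sites within 25 kb, at ranks 6 and 4 as given above. EGLN3 had another strong site at −109350 bp (rank 60, 1310 and 1050.12).

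JmjC histone demethylases use oxygen as a substrate, and 7 of 16 had an HCT-116 site within 2 kb, against 5 in PC-3, 9 in T47D and 5 in A549 cells. Over all coding genes the shares were 6.47% in HCT-116, 2.34% in PC-3, 7.39% in T47D and 1.87% in A549 cells. KDM3A had rank 19 (2823 and 1593), KDM4B rank 37 (2060 and 1168), KDM6B rank 96 (1454 and 510) and KDM4C rank 145 (874 and 389). KDM2A, JMJD6 and KDM5C ranked lower, at 339, 591 and 962. KDM5B had no peak in either HCT-116 library within 25 kb, although it had a site within 2 kb in T47D cells.

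Collagen-modifying enzymes had 6 of 11 genes with a site within 2 kb, against 3 in PC-3, 5 in T47D and 4 in A549 cells. All coding genes were at 6.47% in HCT-116, 2.34% in PC-3, 7.39% in T47D and 1.87% in A549 cells. P4HA1 and P4HA2, the catalytic subunits of prolyl 4-hydroxylase, held ranks 27 (2539 and 1242) and 39 (1654 and 1253), and PLOD2, a lysyl hydroxylase, rank 108 (1102 and 466). LOXL1 and LOXL2, which cross-link collagen, had sites at ranks 818 and 852 that overlapped no site of another line. LOX had a site in T47D cells and no HCT-116 peak within 25 kb.

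Secreted and pH-regulating factors showed a spread of ranks. Of 15 angiogenic and secreted factors, 5 had sites within 2 kb. STC2 (stanniocalcin 2) and ADM (adrenomedullin) had ranks 22 (2798 and 1337) and 24 (2314 and 1392), ANGPTL4 rank 205 (527 and 348) and PDGFB rank 452 (347 and 165). VEGFA, the main angiogenic target of HIF, had a promoter site of rank 868 with scores of 162 and 98.3 and a site 24746 bp downstream of the nearest start with 293 and 93.7 (rank 742). Of 8 genes of pH control, SLC16A3 and SLC16A1, lactate transporters known as MCT4 and MCT1, had sites within 2 kb. SLC16A3 scored 2338 and 1115 (rank 40) in HCT-116 cells and had sites in all other lines, while SLC16A1 scored 140 and 59.4 (rank 1346) and met no peak of the other 6 libraries. CA9 (carbonic anhydrase IX), a classical HIF-1 target, had its nearest HCT-116 site 14982 bp from its start, at the promoter of CCDC107 (rank 436), whereas T47D and A549 cells had one within 2 kb.

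Sites at genes of other functions were mostly of middle or low rank. Of 14 circadian clock genes, PER2, NR1D2, DBP and NFIL3 had sites within 2 kb, at ranks 1498, 1158, 1252 and 785. PER2 (76.5 and 72.0) and NR1D2 (113 and 82.9) had a site in no other line, and NR1D2 met a peak in 2 other libraries. Of 7 targets of AHR, CYP1A1 and CYP1B1, cytochromes that oxidise aromatic compounds, had sites within 2 kb at ranks 718 (152 and 139) and 706 (166 and 133). AHRR, the repressor of AHR, had 3 sites in HCT-116 cells, of ranks 251 (417 and 300), 1242 and 1395, and no site in another line. CYP1A1 had none in the other lines either, whereas CYP1B1 had one in each. Of 12 glycogen genes 5 had a site within 2 kb, led by GBE1, the branching enzyme, at rank 45 (1741 and 1150).

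Of 16 genes of ribosome biogenesis, 7 had a site within 2 kb in HCT-116 cells, against 2 in PC-3, 6 in T47D and 1 in A549 cells. The shares of all coding genes were 6.47% in HCT-116, 2.34% in PC-3, 7.39% in T47D and 1.87% in A549 cells. RRP12 had rank 23, but its site is that of PGAM1, a neighbour. The others ranked between 468 (FBL, fibrillarin, 359 and 154) and 1636 (NOP56, 87.3 and 52.3), with NPM1 (nucleophosmin) at 1227. Of 77 cytosolic ribosomal proteins 3 (3.90%), of 87 nuclear genes of oxidative phosphorylation 4 (4.60%) and of 58 replication-dependent histones 2 (3.45%) had a site within 2 kb, against 6.47% of all coding genes. Within 25 kb of the gene the shares were 15.6%, 16.1% and 20.7%, against 14.2% of all coding genes, so their place relative to all genes depended on the distance. Without HCT-116 replicate 3, that is, with the peaks of replicate 2 alone, the counts within 2 kb were 18, 9 and 13. That list is longer, and the share of all coding genes near its peaks was not computed. These 3 counts therefore cannot be set against all genes. The histone list was drawn by gene symbol and leaves out HIST1H4B, a histone gene with a symbol of the older style. A region nearest to it, within 2 kb of a coding start, had a site in all 4 lines and HCT-116 scores of 765 and 503.

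Basic helix-loop-helix repressors and stress genes were led by a few strong sites. BHLHE40, a repressor induced by hypoxia, held rank 35 (1907 and 1238), MXI1, an antagonist of MYC, rank 174, BHLHE41 rank 527 and HES1 rank 1351, so 4 of 10 genes of that list had a site within 2 kb. DDIT4 (REDD1), an inhibitor of mTORC1, was the one gene of 8 in the list of growth restraint, with a site at its start of rank 69 (1256 and 757) and another at −12859 bp of rank 44 (2212 and 1090). NDRG1 in the same list had no HCT-116 site within 25 kb, but a site at −74088 bp had rank 13 (3100 and 1643). In iron and heme metabolism TFRC, the transferrin receptor, was the one of 10 genes with a site within 2 kb (rank 283, 581 and 235).

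Lists of tissue genes were read against the same shares of all coding genes, 6.47% within 2 kb and 14.2% within 25 kb. None of 12 intestinal markers had an HCT-116 site within 2 kb, a list too short to be told from the share of all genes. VIL1 (villin) was the one with a site within 25 kb (rank 343), which is the promoter site of its neighbour CTDSP1 and was present in every other line. Of 15 Wnt targets, active in most colorectal carcinomas, TCF7 was the one (6.67%) with a site within 2 kb (56.3 and 119, rank 1454), and it met no peak of the other libraries. No prostate or lung marker had an HCT-116 site within 25 kb. Of 11 luminal breast markers the keratins KRT8, KRT18 and KRT19 (27.3%) had a site within 25 kb in HCT-116 cells, 1 site serving both KRT8 and KRT18. A549 cells also had 3 of 11 and PC-3 cells 1, against 6.02% and 7.08% of all coding genes. T47D cells, the luminal breast line, had 8 of 11, against 16% of all coding genes within 25 kb of a T47D site.

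**Figure D4:**
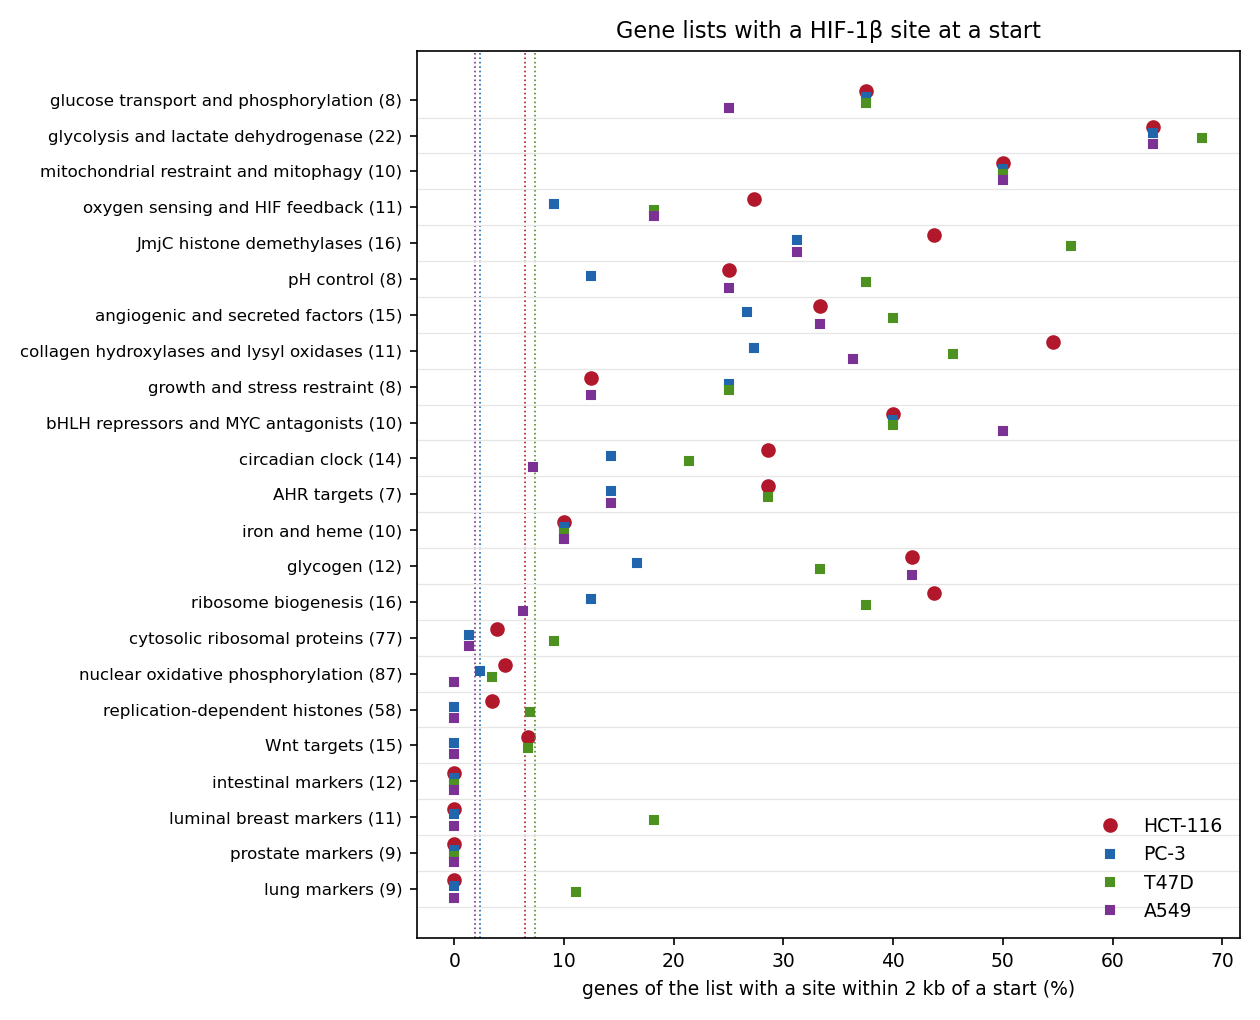
Percent of the genes of each list (number of genes in brackets) with a site within 2 kb of a start in HCT-116 (red circles), PC-3, T47D and A549 cells (squares); dotted lines mark the share of all coding genes in each line, 6.47% for HCT-116. Glycolysis reaches 63.6% in HCT-116 cells. The lists of ribosomal proteins, oxidative phosphorylation and histones, at 3.90, 4.60 and 3.45%, lie left of the HCT-116 line at this distance, but at 15.6, 16.1 and 20.7% within 25 kb they are above the 14.2% of all coding genes.

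HCT-116 sites ranged from those common to all lines to those seen nowhere else. Of 1757 sites, 232 (13.2%) had a site in all 3 other lines, 281 (16.0%) in 2, 539 (30.7%) in 1 and 705 (40.1%) in none. At 394 sites (22.4%) no peak of any of the other 6 libraries overlapped. Sharing fell with rank, a site in all other lines being found for 48.6% of the 20% of sites that ranked highest and 0.570% of the lowest 20%, and no peak elsewhere for 5.11% and 45.01%. The median of the mean percentile was 93.7 for sites in all lines and 45.2 for those with no peak elsewhere. The HIF core was in the central window of 78.0% and 74.9% of these sets.

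T47D cells shared the most sites with HCT-116 cells, and most of these were at promoters. The overlap of 782 sites was 44.5% of HCT-116 and 37.9% of T47D sites. With PC-3 cells it was 548 sites, 31.2% of HCT-116 and 56.5% of PC-3 sites, and with A549 cells 26.6% of HCT-116 and 44.8% of A549 sites. At HCT-116 promoter sites the share also found in T47D was 55.5%, against 28.5% for PC-3 and 22.6% for A549. Away from promoters T47D had the lowest share, 25.2%, against 36.0% for PC-3 and 33.7% for A549. Sites shared with T47D alone numbered 302 at promoters and 53 away from them, whereas those shared with PC-3 alone numbered 31 and 65, and with A549 alone 24 and 63. The lists differ in length and in promoter share, and their part in these overlaps was not tested.

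The strongest HCT-116 sites with no peak elsewhere were mostly distal. After the SLC2A1 site came a site 52006 bp from the start of TMEM67 (1473 and 668, rank 74) and one in an intron of LRMDA (752 and 447, rank 141). A promoter site of FOXH1 (539 and 420, rank 176), which encodes a partner of SMAD proteins, was the sole promoter site among the first 10. The others were in introns of SLC39A11, a zinc transporter gene (1047 and 286, rank 200), ROR2, a receptor of WNT5A (928 and 283, rank 203), AHRR (rank 251) and HDAC4, a histone deacetylase gene (744 and 232, rank 259), or between genes nearest to NOTCH1, a signalling receptor (399 and 322, rank 245), and ZFPM1 (455 and 266, rank 258). The AHRR site lay at −20992 bp and the NOTCH1 site at −32589 bp. Of the 394 sites as a whole, 54.8% were at promoters.

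Some genes gathered several HCT-116 sites. There were 1575 genes that were nearest to at least 1 site, 115 of them to 2 and 27 to at least 3. GSE1 and SLC45A1 were each nearest to 5. The SLC45A1 sites lay between −135882 and −85922 bp, with ranks from 36 (2407 and 1139) to 1251. FOSL2, an AP-1 subunit, IRF2BP2, a corepressor, and MTHFD1L, a mitochondrial enzyme of folate metabolism, were each nearest to 4, with best ranks of 227, 475 and 214. By chromosome the number of HCT-116 sites per 100 coding genes was 2.76 on chromosome X and between 6.15 and 11.9 on the autosomes, and chromosome X was also at 2.53 in PC-3, 5.06 in T47D and 1.84 in A549 cells.

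Among the 232 regions with a site in all 4 lines, the order of scores in HCT-116 cells was compared with that in the other lines. Each score was turned into its percentile among these 232 regions within its library, and limma compared HCT-116 with the mean of the other 3 lines. HCT-116 was higher at 27 regions (11.6%) and lower at 28 (12.1%) at an adjusted p of 0.05. Of the 167 promoter regions 19 were higher and 14 lower, and of the 65 distal regions 8 and 14. Here the class was set by the edges of the region merged over the 4 lines, which can be wider than the HCT-116 site. The RARA and IRF2BP2 regions named below thus count as promoter, although their HCT-116 sites were distal. The calls depended on the scale. With percentiles within the whole peak list, 1 region passed, that of ALDOC (higher, adjusted p = 0.0354 in limma), which was not among the 55. Without HCT-116 replicate 2 the number was 15 and without replicate 3 it was 5, and without T47D replicate 1 or 2 it was 20 or 34.

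The largest difference was at a region where HCT-116 scores were low. The RARA region (retinoic acid receptor α), 2802 bp downstream of a start on chromosome 17, had percentiles of 10.6 and 3.66 in HCT-116 replicates 2 and 3, and 65.7 to 83.0 in the other 6 libraries. The difference was −67.6 ± 4.17 (SE; limma, adjusted p = 0.000426), the groups did not overlap, and it stayed past the threshold without either HCT-116 replicate (limma, adjusted p = 0.0108 and 0.00891). On the whole-list scale it was −31.7 (limma, adjusted p = 0.198). A region 7905 bp downstream of ELF3, an epithelial ETS factor, was at 1.08 and 2.80 in HCT-116 cells and between 6.25 and 78.7 elsewhere (−33.9 ± 3.22 SE, limma, adjusted p = 0.00311). A region at −295002 bp from PITRM1 was at 6.68 and 21.8 against 33.8 to 74.4 (−43.8 ± 4.60 SE, limma, adjusted p = 0.00384). KRT19, a keratin of simple epithelia, was at 1.51 and 1.94 against 3.66 to 40.7 (−22.3 ± 3.75 SE, limma, adjusted p = 0.0126). UACA, KCTD11, IRF2BP2, MXI1, BIRC3 (an inhibitor of apoptosis) and SCARB1 (the receptor of high-density lipoprotein) completed the first 10, with differences from −32.3 to −21.9 percentile points. On the whole-list scale the differences at KCTD11, MXI1 and BIRC3 were above 0. Of the 20 regions named here in either direction, RARA, ELF3, PITRM1 and KCTD11 were the ones that still passed in limma without HCT-116 replicate 3, and KRT19, BIRC3, ADM, AUH, FAM210A, BCKDK, TEX44, KIAA2013 and WDR45B did not pass without replicate 2 either. Without T47D replicate 1, SCARB1 and WDR45B did not pass.

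Regions where HCT-116 scores ranked high were led by distal ones. At LEKR1, with the region at −9515 bp, the percentiles were 76.9 and 90.7 in HCT-116 cells and 12.3 to 57.5 in the other libraries (52.4 ± 6.08 SE, limma, adjusted p = 0.00494), with adjusted p = 0.0557 without HCT-116 replicate 3. TM2D3 was at 59.3 and 72.6 against 15.3 to 47.2 (37.3 ± 4.70 SE, limma, adjusted p = 0.00535). WDR45B, whose product acts in autophagy, was at 70.9 and 67.5 against 2.37 to 58.0 (41.5 ± 7.91 SE, limma, adjusted p = 0.0185). At these 3 regions and at FAM210A, BCKDK, TEX44 and KIAA2013 both HCT-116 libraries lay above all others, whereas at GPR37L1, AUH and ADM they did not. ADM was at 88.6 and 89.9, the A549 libraries both at 93.8, and the T47D libraries at 39.4 and 32.1.

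**Figure D5:**
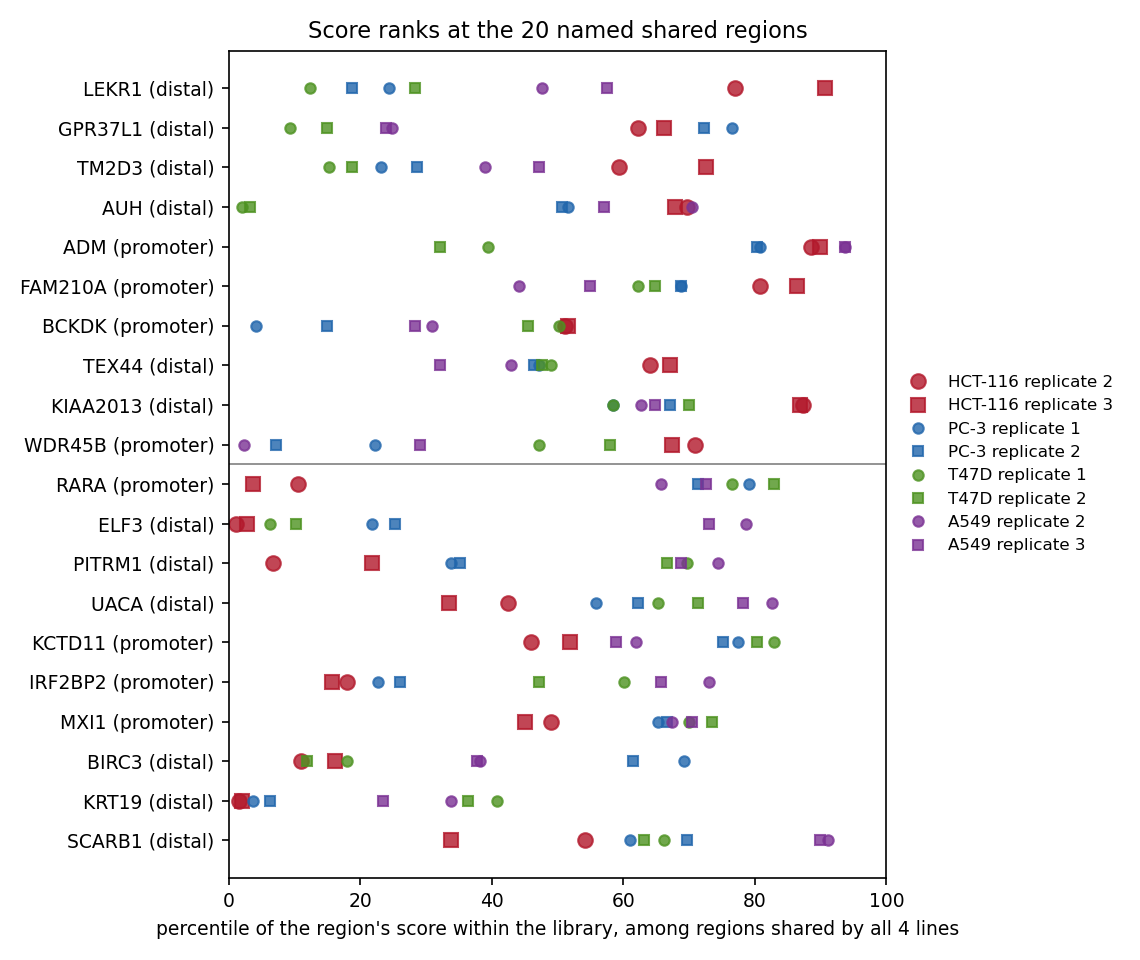
Percentile of the region's score within each library among the 232 regions shared by all lines (horizontal), for the 10 regions most clearly higher (above the line) and the 10 most clearly lower (under it) in HCT-116 cells. HCT-116 replicates are the large red symbols; at RARA they sit at 10.6 and 3.66 and the other 6 libraries between 65.7 and 83.0.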

How the data were processed

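HIF-1β ChIP-seq libraries of 4 lines, 2 replicates each, were made by the authors. Per the labels (the submitters' processing notes), the tools were Trim Galore (0.3.3), BWA (0.7.5a-r405), SAMtools (0.1.19), Picard (1.106), bedtools (2.17.0) and MACS, on GRCh37 (hg19). The authors deposited 1 peak list per replicate, called with MACS, giving each peak an interval and a score whose definition is not given in the sources used here. In each list the lowest score was between 50.00 and 50.09, and no read counts were analysed here, so depth is unknown.

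Peaks were merged as described, and sites were annotated with GENCODE release 44 lifted to GRCh37. Distances for class run from the edge of a site, and offsets from its centre, to the nearest start of any protein-coding transcript. Library measures were compared by exact permutation tests with Benjamini-Hochberg adjustment, and score percentiles with limma (3.58.1) in R (4.3.3). Python (3.11.15), NumPy (2.4.6), SciPy (1.17.1), pysam (0.24.0) and samtools (1.23.1) were used. Procedures were tested on simulated data. Members, gene lists and tests were chosen with earlier results of these data known. Named genes were those nearest to the 20 top-ranked sites, the top 10 distal sites and the top 10 sites without a peak elsewhere, the 5 nearest to most sites, up to 10 limma regions each way, and list genes. Alternatives were stricter overlap, peaks of either replicate, higher-scoring peaks, other distances, other scales and each library left out.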

Additional observations from a re-analysis of the deposited data

How the results depend on the processing

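The 1757 HCT-116 sites became 1730 with an overlap of 50% of both peaks, 926 with the higher-scoring 50% of each list, 3936 with a peak of either replicate, and between 1913 and 3790 with either replicate left out. The share without a peak elsewhere, 22.4%, was 40.1% when only sites of other lines counted, 10.4% in the higher-scoring 50% of sites, and 26.1 to 41.7% with a replicate left out. The 79 list genes with a site within 2 kb became 125 within 25 kb of the gene, 127 with a peak of either replicate, and 79 to 127 with a replicate left out. The share of all coding genes was 6.47% within 2 kb and 14.2% within 25 kb. It was not computed for the other peak sets, so those counts cannot be set against all genes. The promoter difference of 20.4 points stayed between 18.1 and 21.4 under all alternatives tried, and none of the 8 library measures passed adjustment under any (without an HCT-116 replicate the smallest possible p is 0.143).

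The 55 score rank calls fell to 1 with percentiles within the whole peak list, where the differences at KCTD11, MXI1 and BIRC3 were 2.06, 1.08 and 2.11 in place of negative ones. On that scale the median of the shared regions was 93.7 in HCT-116, 92.9 in T47D, 83.4 in PC-3 and 70.5 in A549 cells. Leaving out 1 library gave 5 to 71 calls. With the replicate number as a block, 8 were called, all of them among the 55. Deviations of libraries with the same number correlated between −0.0214 and 0.188, over 0.1 in 2 of 8 pairs. Both of these were HCT-116 with A549, the lines numbered 2 and 3. They hold 1 value, because the 2 deviations of a line mirror each other. Whether equal numbers mark a shared batch is not known. Quantile-normalised log2 scores gave 64 calls, and sites with 50% overlap gave 40.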
